A study of Mus musculus and Homo sapiens with 176 samples.

Results

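The comparison described here asks of each gene whether its RNA differs between NeuN+ and NeuN- nuclei in the same way in cerebellum as in prefrontal cortex. The measure is a difference of differences. The NeuN+ minus NeuN- change in prefrontal cortex was subtracted from the same change in cerebellum, on log2(scaled FPKM + 1), so that a positive value means a change more towards NeuN+ in cerebellum. FPKM counts fragments relative to transcript length and library size, and scaling set the libraries to a common level. Of 24854 features in the RNA tables, 14367 reached at least 1 FPKM in at least 2 libraries with a quantification status of OK in all of them, and these were tested. The 8 RNA libraries, out of 176 samples in the series, form 4 groups with 2 libraries each, namely the NeuN+ and NeuN- gates of prefrontal cortex (called prefrontal NeuN+ and NeuN- here) and those of cerebellum. All came from nuclei of 1 C57BL/6 mouse, labelled M3, taken from animals of 8 to 10 weeks, with no treatment or engineered allele named in the labels. NeuN staining and sorting defined the gates. The labels do not say what the 2 libraries of a group share. The p-values therefore rest on library-to-library spread, possibly technical, and say nothing of variation among mice. In nuclei sorted in bulk, fewer cells of a type and less RNA per cell cannot be told apart.

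NeuN is the RNA-binding protein encoded by Rbfox3. Antibodies to it stain the nuclei of most neurons of the cerebral cortex and leave glial nuclei unstained. In the cerebellum the densely packed granule cells stain strongly, whereas Purkinje cells and many inhibitory interneurons of the molecular layer stain weakly or not at all, so that a NeuN gate divides neurons from glia differently in the 2 regions. The excitatory neurons also differ in their receptors. NMDA receptors pair the obligatory subunit encoded by Grin1 with GluN2 subunits, and the GluN2B subunit of Grin2b is prominent in the forebrain while mature granule cells use GluN2C, encoded by Grin2c.

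The promoters below are shown for the first 2 genes in each direction of the ranked list of reversed genes, described further down, that have an entry in the RefSeq promoter table of GRCm38.p6. Each is the 250 bases before the first start listed, 5′ to 3′ on the gene's strand, and capitals mark a match to a searched motif. Grin2c lies on the minus strand (promoter at chr11:115267244-115267493), and Hspb6 (chr7:30552290-30552539), Pparg (chr6:115360894-115361143) and Frmd3 (chr4:74013353-74013602) lie on the plus strand. Grin2c and Hspb6 were higher in cerebellar NeuN+ and lower in prefrontal NeuN+, and Pparg and Frmd3 the other way round.
Grin2c: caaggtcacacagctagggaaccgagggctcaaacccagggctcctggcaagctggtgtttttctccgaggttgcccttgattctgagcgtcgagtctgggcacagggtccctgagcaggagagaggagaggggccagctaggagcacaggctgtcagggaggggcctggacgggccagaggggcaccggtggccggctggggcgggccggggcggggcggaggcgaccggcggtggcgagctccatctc
Hspb6: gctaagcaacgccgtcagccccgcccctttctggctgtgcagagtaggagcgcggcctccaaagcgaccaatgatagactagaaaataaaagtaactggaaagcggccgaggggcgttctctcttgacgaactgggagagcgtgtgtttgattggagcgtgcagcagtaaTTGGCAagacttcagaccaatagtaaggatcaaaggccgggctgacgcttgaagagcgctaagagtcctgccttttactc
Pparg: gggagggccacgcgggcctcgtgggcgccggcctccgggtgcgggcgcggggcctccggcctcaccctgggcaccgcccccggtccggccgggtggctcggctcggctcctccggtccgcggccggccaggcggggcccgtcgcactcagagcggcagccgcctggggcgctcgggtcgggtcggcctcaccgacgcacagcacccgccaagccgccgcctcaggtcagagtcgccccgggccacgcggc
Frmd3: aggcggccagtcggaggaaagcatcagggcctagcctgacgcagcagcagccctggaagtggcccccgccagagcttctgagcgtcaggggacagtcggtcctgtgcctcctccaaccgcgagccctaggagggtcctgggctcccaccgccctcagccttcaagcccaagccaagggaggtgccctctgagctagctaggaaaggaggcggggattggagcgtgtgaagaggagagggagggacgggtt
The 5 motifs searched, on both strands, were the E-boxes CAGCTG and CAGATG, the cyclic AMP response element TGACGTCA, the NFI half-site TTGGCA and the SOX motif ACAAAG. The only match in the 4 windows was TTGGCA, whose first base lay 80 bases upstream of the start of Hspb6. Matched by symbol, 910 of the 1219 genes reversed with cerebellar NeuN+ higher and 1031 of the 1380 reversed with prefrontal NeuN+ higher had a window of this length, as had 10573 symbols of all features tested. CAGATG was in 9.56% and 9.41% of the windows of the reversed sets and in 10.4% of all tested. CAGCTG was in 10.5% and 12.6% against 12%, TGACGTCA in 3.41% and 3.20% against 2.82%, TTGGCA in 10.2% and 8.92% against 10.3%, and ACAAAG in 12.6% and 11% against 12.2%. These shares are descriptions of letters in a window.

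Rbfox3 itself, the gene of the antigen used for sorting, was higher in NeuN+ in both regions, but by different amounts. It read 16.9 and 16.4 scaled FPKM in the prefrontal NeuN+ libraries and 12.5 and 11.1 in the prefrontal NeuN- libraries. In cerebellum it read 128 and 123 in NeuN+ and 34.7 and 35.6 in NeuN-. The gates did not overlap in either region, and the change was 1.39-fold in prefrontal cortex and 3.51-fold in cerebellum, a difference of 1.34 ± 0.0893 (log2, SE; limma, Benjamini-Hochberg adjusted p = 3.3e-05). Fold changes throughout are on the log2(scaled FPKM + 1) scale, which understates the change of low genes.

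The gate change differed between the regions for most genes. The test called 10071 of 14367 features (70.1%) at an adjusted p under 0.05. The change was larger, that is more towards NeuN+, in cerebellum for 4755 (33.1%) and in prefrontal cortex for 5316 (37.0%), and 4252 features (29.6%) differed by at least 1 log2 unit. The gate change within a region was called for 10294 features (71.7%) in cerebellum and 10424 (72.6%) in prefrontal cortex. Across the 14367 features, which are not independent replicates, the 2 gate changes had a Pearson correlation of 0.384 and a Spearman correlation of 0.320. The middle of the distribution of differences ran from -0.69 to 0.59 log2 units (25th to 75th percentile), with a median of -0.06.

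A reversed feature is one for which the difference and both gate changes were called and the gate changes had opposite signs. There were 1219 features (8.48%) higher in NeuN+ of cerebellum and lower in NeuN+ of prefrontal cortex, and 1380 (9.61%) with the opposite pattern. Most reversals were modest: both gate changes reached 1 log2 unit in 56 of the 1219 and in 132 of the 1380. The split between the directions moved with how libraries were scaled, as did the median. The median difference over all features was -0.06 with the median-of-ratios factors used here, 0.13 without scaling, -0.23 with libraries set to a common sum and 0.02 after quantile normalization. The share of called features with the larger change in cerebellum was 47.2% here, and 57.6% (5834 against 4296), 37.7% (3828 against 6326) and 51.2% (5026 against 4796) under the others in that order. Reversed features numbered 1668 and 1006 without scaling, 834 and 1830 at a common sum, and 1189 and 1200 after quantile normalization, again with those higher in cerebellar NeuN+ first. Under all 4 scalings 763 of the 1219 (62.6%) and 734 of the 1380 (53.2%) were reversed, and under these and all other settings tried, 20 in all, 515 (42.2%) and 453 (32.8%) were, counts added after the data were seen.

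**Figure D1:**
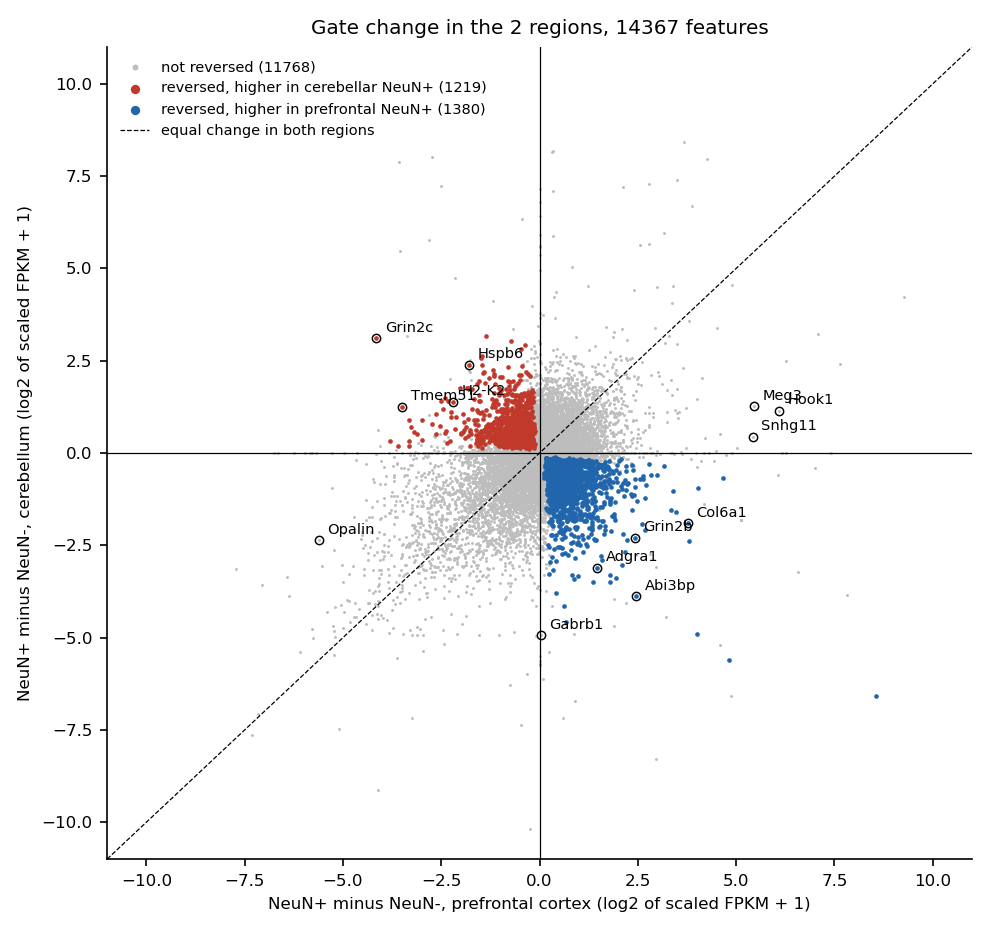
Gate change of each of the 14367 features, NeuN+ minus NeuN- on log2(scaled FPKM + 1), in prefrontal cortex (horizontal axis) and cerebellum (vertical axis), with 1 point per feature. Red and blue points are the 1219 and 1380 reversed features, which by definition lie in the upper left and lower right quadrants, grey points are all others, the dashed line marks equal change, and circles mark some named genes, among them Grin2c at upper left and Abi3bp at lower right. Points farther out carry no circle, among them Neat1, at -5.80 in prefrontal cortex and -4.755 in cerebellum.

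The group with the highest mean is given for the large differences as a description, since the choice by this difference already favours 2 of the 4 groups in each direction. Of the 1869 features called with a difference of at least 1 log2 unit towards cerebellum, 1019 (54.5%) were highest in prefrontal NeuN- and 741 (39.6%) in cerebellar NeuN+. Of the 2383 towards prefrontal cortex, 1131 (47.5%) were highest in prefrontal NeuN+ and 1045 (43.9%) in cerebellar NeuN-. Most of these genes were expressed on both sides, with a highest group mean of at least 1 scaled FPKM in each region for 1423 of the 1869 and 1810 of the 2383.

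The reversed genes named here are the 12 in each direction with the largest smaller gate change, among those with a highest group mean of at least 5 scaled FPKM in each region and the same sign of the difference in each of the 16 choices of 1 library per group. All 24 were reversed in each of the 19 alternative settings tried. The last gene inside the list towards cerebellum was Pcca, with a smaller change of 1.13 log2 units, and the first outside was Chn2 with 1.08. Towards prefrontal cortex they were Adgra1 with 1.47 and Ano6 with 1.46.

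Among the NMDA receptor genes Grin2c and Grin2b reversed in opposite directions, and Grin2c had the largest difference among the 24 named reversed genes. Grin2c (chromosome 11, 115110483 to 115128557, mm9) read 0.247 and 0.272 scaled FPKM in prefrontal NeuN+, 21.8 and 20.9 in prefrontal NeuN-, 137 and 137 in NeuN+ of cerebellum and 15.3 and 14.7 in NeuN- of cerebellum. It was thus nearly absent from prefrontal NeuN+ nuclei alone and highest in cerebellar NeuN+ nuclei, with no overlap between gates in either region. The change was 17.8-fold lower in NeuN+ of prefrontal cortex and 8.6-fold higher in NeuN+ of cerebellum, a difference of 7.25 ± 0.0697 (log2, SE; adjusted p = 1.6e-07).

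Grin2b (chromosome 6, 135679823 to 136123529, mm9) read 36.6 and 32.9 scaled FPKM in prefrontal NeuN+, 6.35 and 4.94 in prefrontal NeuN-, 0.810 and 0.869 in NeuN+ of cerebellum and 8.17 and 7.87 in NeuN- of cerebellum. Within cerebellum it was higher in the gate where Grin2c was lower, and the gates did not overlap in either region. It was 5.40-fold higher in NeuN+ of prefrontal cortex and 4.91-fold lower in NeuN+ of cerebellum, a difference of -4.73 ± 0.156 (log2, SE; adjusted p = 3.5e-06). The shared subunit Grin1 did not reverse: it was higher in NeuN+ in both regions, 16.0-fold in prefrontal cortex and 2.74-fold in cerebellum, and Grin2a was likewise higher in NeuN+ in both, 12.4-fold and 4.90-fold. Grin1 overlaps the antisense gene Grin1os, and reads of such partners cannot be told apart, since no source used here states whether counting used strand.

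The other genes higher in cerebellar NeuN+ and lower in prefrontal NeuN+ encode proteins of varied function. Tmem51, which encodes a transmembrane protein and overlaps Tmem51os1, read 0.185 and 0.314 in prefrontal NeuN+ against 12.6 and 13.4 in NeuN-, and 22.0 and 22.6 in cerebellar NeuN+ against 8.99 and 8.51 in NeuN-. Its difference of 4.75 log2 units was carried mainly by the prefrontal side. Hspb6, a small heat shock protein gene, was more even, at 2.61 and 0.869 against 8.36 and 7.62 in prefrontal cortex and 7.0 and 6.42 against 0.657 and 0.291 in cerebellum. The prefrontal NeuN+ libraries of Hspb6 lay far apart, though below both NeuN- ones, and its difference was 4.19 ± 0.414 (log2, SE; adjusted p = 1.6e-04). Tspan4, a tetraspanin gene that overlaps Chid1, stood highest in cerebellar NeuN+ at 93.0 and 95.6, with 18.5 and 16.2 in cerebellar NeuN-, 4.72 and 5.09 in prefrontal NeuN+ and 14.8 and 15.8 in prefrontal NeuN-.

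Fars2, the mitochondrial phenylalanyl-tRNA synthetase gene, was 4.45-fold higher in cerebellar NeuN+ (13 ± 0.920 against 2.15 ± 0.00682 scaled FPKM, SD, n = 2) and 2.24-fold lower in prefrontal NeuN+ (9.57 ± 0.0680 against 22.7 ± 0.858). Pcca, the alpha subunit gene of mitochondrial propionyl-CoA carboxylase, was 2.63-fold higher and 2.19-fold lower. Fars2 was highest in prefrontal NeuN-, whereas Pcca was highest in cerebellar NeuN+ at 52.2 and 53.0. Prim1, the catalytic primase subunit gene, was 3.38-fold higher in cerebellar NeuN+ and 3.59-fold lower in prefrontal NeuN+. The remaining members were Hdhd3 (4.75-fold higher, 2.27-fold lower), Zfp119b, a zinc finger gene (4.10-fold and 2.42-fold), Rangrf, the Ran guanine nucleotide release factor gene, which overlaps Slc25a35 (2.52-fold and 2.27-fold), Phykpl, which overlaps Hnrnpab (2.57-fold and 2.23-fold), and H2-K2, a class I histocompatibility gene listed as a transcribed pseudogene (2.63-fold and 4.56-fold). Zfp119b and H2-K2 belong to families with closely similar copies, so their values are uncertain.

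In the opposite direction, Abi3bp, which encodes an extracellular matrix protein, had the largest difference of the 12, at -6.34 ± 0.0885 (log2, SE; adjusted p = 3.3e-07). It read 5.70 and 6.08 scaled FPKM in prefrontal NeuN+, 0.232 and 0.273 in prefrontal NeuN-, 2.09 and 2.06 in NeuN+ of cerebellum and 44.2 and 44.4 in NeuN- of cerebellum. Cerebellar NeuN- was thus far above the other 3 groups. Col6a1, the collagen VI alpha 1 gene, was instead highest in prefrontal NeuN+, at 20.5 and 20.5 against 0.736 and 0.431 in NeuN-, and read 0.772 and 0.593 in cerebellar NeuN+ against 5.55 and 5.03 in NeuN-.

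Plk2, a polo-like kinase gene induced by neuronal activity, reached 191.5 and 183.7 in prefrontal NeuN+ and 50.6 and 56.3 in prefrontal NeuN-. It read 1.00 and 1.05 in NeuN+ of cerebellum and 18.2 and 19.5 in NeuN- of cerebellum. It was 3.47-fold higher in NeuN+ of prefrontal cortex and 9.79-fold lower in NeuN+ of cerebellum. Socs2, a suppressor of cytokine signalling gene, was highest in cerebellar NeuN- at 61.0 and 59.3, against 4.43 and 4.49 in cerebellar NeuN+, and 3.46-fold higher in prefrontal NeuN+ than in NeuN-. Adgra1, an adhesion G protein-coupled receptor gene, was near level in prefrontal NeuN+ (46.3 and 45.9) and cerebellar NeuN- (46.5 and 48.2) and lower in the other 2 groups, at 16.3 and 15.6 in prefrontal NeuN- and 4.67 and 4.61 in cerebellar NeuN+.

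Pparg, a nuclear receptor gene best known from fat cells, read 8.87 and 9.16 in prefrontal NeuN+ against 0.845 and 1.53 in NeuN-, and 0.0790 and 0.558 in cerebellar NeuN+ against 5.45 and 5.86 in NeuN-. Frmd3, a FERM domain protein gene, was 6.06-fold higher in prefrontal NeuN+ and 3.77-fold lower in cerebellar NeuN+. N4bp3, a Nedd4-binding protein gene that overlaps D930048N14Rik, was 3.00-fold higher and 7.49-fold lower, Dbndd1 was 2.89-fold higher and 3.93-fold lower, and the AMPA receptor subunit gene Gria3 was 2.83-fold higher and 4.05-fold lower. Ier5l was listed at 0 in both cerebellar NeuN+ libraries and at 5.34 and 6.43 in cerebellar NeuN-, so no fold is given there. It stood at 13.8 and 12.8 in prefrontal NeuN+ against 3.93 and 3.74 in NeuN-.

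**Figure D2:**
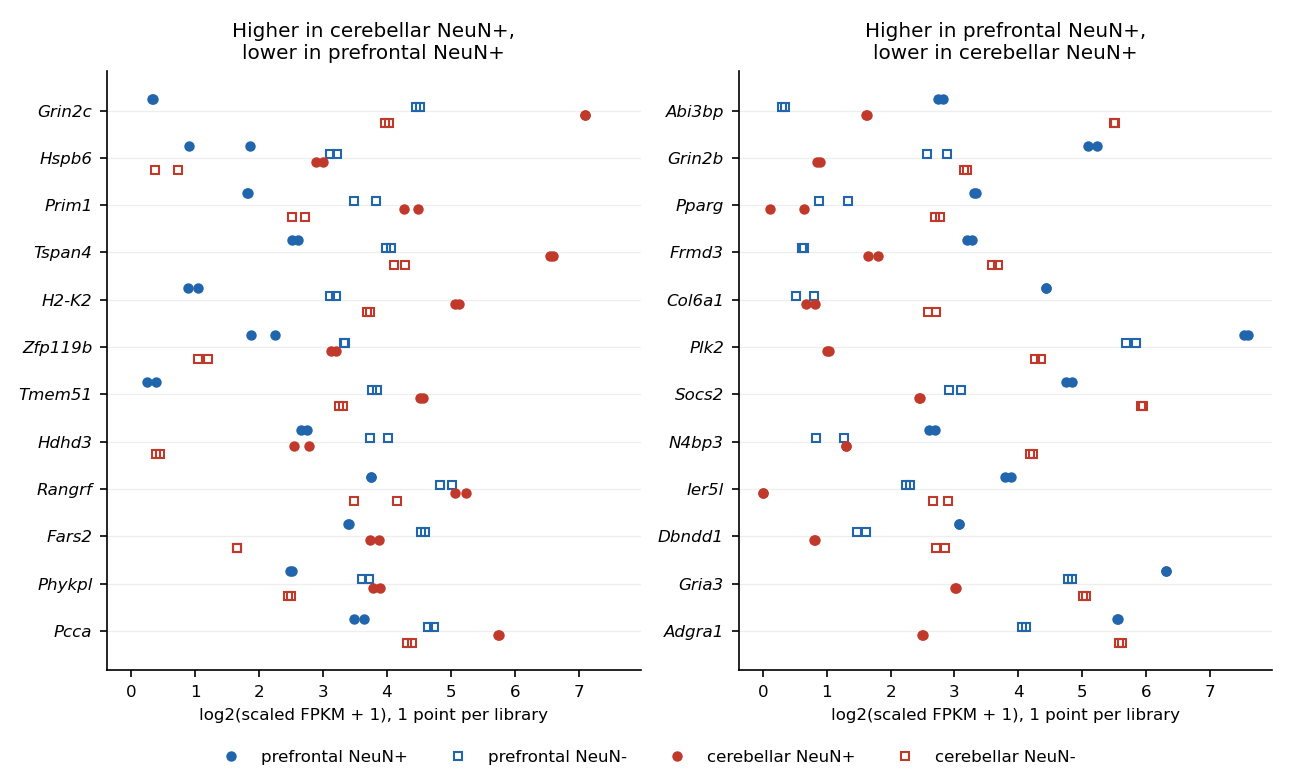
log2(scaled FPKM + 1) of the 24 named reversed genes (vertical axis), with 1 point per library, filled circles for NeuN+ and open squares for NeuN-, blue for prefrontal cortex and red for cerebellum. In the left panel the red circles lie to the right of the red squares and the blue circles to the left of the blue squares, and in the right panel the order is the opposite; Grin2c in cerebellar NeuN+ at 137 scaled FPKM and Plk2 in prefrontal NeuN+ at 191.5 and 183.7 are the highest.

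Ionotropic glutamate receptor genes, as a family, changed more towards NeuN+ in prefrontal cortex. Of 16 tested members, 13 had the larger change in prefrontal cortex, 1 in cerebellum (Grin2c) and 2 were not called, against 37.0% and 33.1% of all features. The median difference was -1.72 against -0.06 over all features, and it lay between -1.60 and -1.84 under the 4 scalings. Within prefrontal cortex 14 were higher and 2 lower in NeuN+, while within cerebellum 7 were higher and 8 lower. Of the 16, 7 reversed with prefrontal NeuN+ higher (6 or 7 under the 4 scalings), against 9.61% of all features.

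The AMPA receptor genes, which encode the fast excitatory channels, accounted for 3 of these 7. Gria1 read 25.0 and 25.5 scaled FPKM in prefrontal NeuN+, 8.94 and 9.44 in prefrontal NeuN-, 5.76 and 5.39 in NeuN+ of cerebellum and 72.8 and 73.6 in NeuN- of cerebellum. It was 2.58-fold higher in NeuN+ in prefrontal cortex and 11.3-fold lower in cerebellum, a difference of -4.86 ± 0.0728 (log2, SE; adjusted p = 4.1e-07). Gria4 had the same signs with a smaller cerebellar change, 2.35-fold higher and 2.77-fold lower, with 59.3 and 59.0 in cerebellar NeuN-. Gria1 and Gria4 also stand in the list of genes of Bergmann glia, the radial astrocytes of cerebellum. Gria2, the subunit that sets calcium permeability, did not reverse: it was 3.16-fold higher in NeuN+ in prefrontal cortex and 1.13-fold higher in cerebellum. The other reversed members were Grin2b, the NMDA receptor gene Grin3a, and the kainate receptor genes Grik3 and Grik4, of which Grik4 stayed under 1 scaled FPKM in the 4 cerebellar libraries. Grik2, another kainate receptor gene, was higher in NeuN+ by 1.94 log2 units in prefrontal cortex and 2.12 in cerebellum, with no called difference (0.19).

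Of 7 metabotropic glutamate receptor genes, 5 had the larger change in prefrontal cortex and 2 in cerebellum, counts that were the same under the 4 scalings. Among all features the shares were 37.0% and 33.1%. Grm7 and Grm8 reversed, with Grm7 2.78-fold higher in NeuN+ of prefrontal cortex and 3.50-fold lower in cerebellum. Grm4, the receptor of granule cell axons, went the other way: it read 23.6 and 24.1 in cerebellar NeuN+ against 2.69 and 2.57 in NeuN-, and between 0.224 and 0.516 in the 4 prefrontal libraries. Grm3 was lower in NeuN+ in both regions, 2.46-fold in prefrontal cortex and 1.33-fold in cerebellum.

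The GABA-A receptor genes, whose products are the main inhibitory channels, showed no common direction. Of 13 tested, 3 had the larger change in cerebellum, 5 in prefrontal cortex and 5 were not called. Among all features 33.1% had the larger change in cerebellum and 37.0% in prefrontal cortex. The median difference of -0.09 turned to 0.06 without scaling. Gabra6, the granule cell subunit gene, was listed at 0 in both NeuN+ libraries of prefrontal cortex, with 0.205 and 0.551 in its NeuN- gate, and read 251 and 257 in cerebellar NeuN+ against 49.0 and 48.7 in NeuN-. Gabra2 and Gabra4 reversed with prefrontal NeuN+ higher, by 0.56 and 0.28 log2 units in prefrontal cortex. Members reversed in this direction numbered 3 here, 1 without scaling, 4 at a common sum and 4 after quantile normalization. Gabrb1 differed by -4.96 ± 0.0999 (log2, SE; adjusted p = 1.2e-06) without reversing: prefrontal NeuN+ (91.2 and 90.7) and NeuN- (84.4 and 93.4) overlapped, while cerebellar NeuN+ read 3.40 and 2.93 and cerebellar NeuN- 126 and 124. Gabrd, the extrasynaptic subunit gene, was 2.81-fold higher in NeuN+ in prefrontal cortex and 2.94-fold in cerebellum, with no called difference (0.06 ± 0.0701, log2, SE; adjusted p = 0.45).

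**Figure D3:**
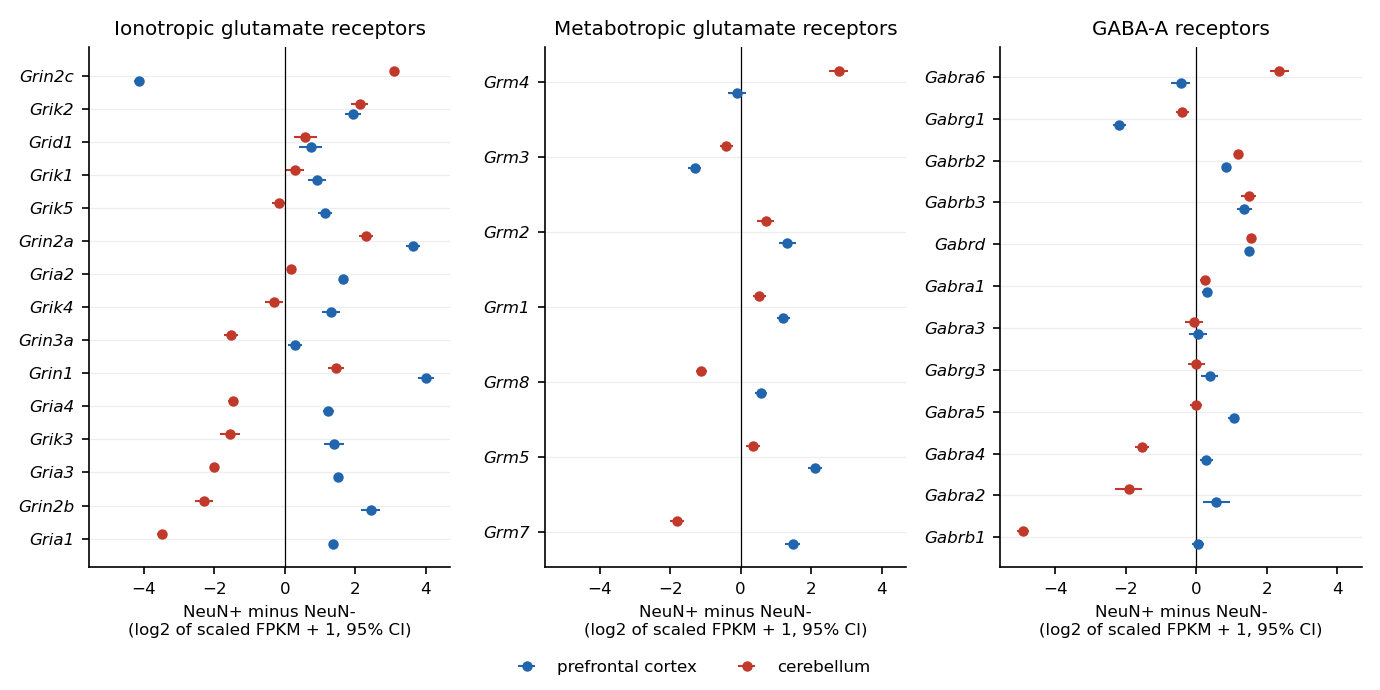
NeuN+ minus NeuN- change on log2(scaled FPKM + 1), with its 95% confidence interval from limma, of the members of 3 receptor gene families reported here in prefrontal cortex (blue) and cerebellum (red), ordered by the difference of the changes. Grin2c is the one ionotropic member with red far to the right of blue, whereas Gria1, Grin2b and Gria3 have blue on the right of 0 and red on the left; the points of Gabrd lie together at 2.81-fold and 2.94-fold.

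The counts of voltage-gated channel and vesicle genes stand against 37.0% of all features with the larger change in prefrontal cortex and 33.1% in cerebellum. Of 22 sodium and calcium channel genes, 15 had the larger change in prefrontal cortex and 4 in cerebellum, with a median difference of -0.77 (-0.63 to -0.89 under the 4 scalings). Cacna1a, removed for its status, was not tested. Cacna2d3 reversed, at 20.8 and 22.2 against 7.64 and 8.05 in prefrontal cortex and 5.32 and 5.32 against 18.2 and 18.4 in cerebellum. Scn2a1, a sodium channel gene of axons, had the larger change in cerebellum by 1.17 log2 units. The 34 potassium channel genes were divided, with 16 towards prefrontal cortex, 10 towards cerebellum and 8 not called. Kcnk1 reversed with cerebellar NeuN+ higher, 2.28-fold higher there and 1.48-fold lower in prefrontal cortex. Among 23 synaptic vesicle genes, 12 changed more towards NeuN+ in cerebellum and 4 in prefrontal cortex (10 and 6 at a common sum, where the split of all features also moved towards prefrontal cortex). Stx1a, which encodes a syntaxin of vesicle fusion, was an exception at 22.2 and 19.5 against 8.82 and 7.14 in prefrontal cortex and 0.265 and 0.146 against 1.26 and 1.08 in cerebellum.

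Genes of cerebellar granule cells were largely higher in cerebellar NeuN+. Of 15 tested, 13 had the larger change in cerebellum and 1 in prefrontal cortex, against 33.1% and 37.0% of all features. The median difference was 1.78 (1.54 to 1.87 under the 4 scalings). Of the 15, 7 reversed with cerebellar NeuN+ higher (4 after quantile normalization), against 8.48% of all features. Among the 7 were Gabra6 and Cbln1, whose means were under 1 scaled FPKM in both prefrontal gates. Cbln1 read 0.326 and 0.246 in prefrontal NeuN+ against 0.541 and 1.05 in NeuN-. The summed level of the 15 genes was 1220 and 1230 scaled FPKM in cerebellar NeuN+, 388 and 386 in cerebellar NeuN-, 74.2 and 76.4 in prefrontal NeuN+ and 83.1 and 85.4 in prefrontal NeuN-. Etv1, a transcription factor gene, was 3.11-fold higher in cerebellar NeuN+ and 1.21-fold lower in prefrontal NeuN+. Pax6, a transcription factor gene that overlaps Elp4, read 27 and 25.3 against 13.8 and 13.1 in cerebellum and 0.203 and 0.30 against 8.44 and 9.49 in prefrontal cortex, a difference of 3.90 log2 units. Neurod1, the differentiation factor of granule cells, was 2.51-fold higher in cerebellar NeuN+, with 1.30 to 1.75 in the prefrontal libraries. Zic4 was lower in NeuN+ in both regions.

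Of 7 genes of cerebellar interneurons, 6 had the larger change in prefrontal cortex and 0 in cerebellum, against 37.0% and 33.1% of all features. Sorcs3 and Kit reversed, a pattern that 9.61% of all features had. Kit stayed under 1 scaled FPKM in all prefrontal libraries, at 0.296 and 0.393 in NeuN+ against 0.0344 and 0.116 in NeuN-. Sorcs3, a sorting receptor gene, was 4.47-fold lower in NeuN+ of cerebellum and 1.48-fold higher in prefrontal cortex. All 6 tested genes of GABA synthesis and transport had the larger change in prefrontal cortex (5 of 6 after quantile normalization). Gad2, a glutamate decarboxylase gene, reversed, at 14.6 and 15.1 against 6.26 and 5.87 in prefrontal cortex and 6.30 and 6.68 against 13.1 and 12.3 in cerebellum. Gad1, the other decarboxylase gene, was 2.83-fold lower in cerebellar NeuN+ (18.3 and 18.7 against 53.3 and 54.9), while its prefrontal change of 0.12 log2 units was not called. The 15 Purkinje cell genes were mixed, 5 towards cerebellum and 8 towards prefrontal cortex. Pcp2, the L7 gene, read 413 and 388 on average in cerebellar NeuN+ and NeuN-, a change that was not called (0.09 log2 units).

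Of 18 genes of cortical projection neurons, 11 had the larger change in prefrontal cortex, 3 in cerebellum and 4 were not called, with a median difference of -0.53, against 37.0% and 33.1% of all features. Camk2a, the alpha subunit gene of the calcium and calmodulin kinase, read 22.5 and 23.1 against 3.11 and 2.85 in prefrontal cortex and 1.19 and 1.02 against 0.736 and 0.875 in cerebellum. Mef2c and Lmo4, both transcriptional regulators of cortical neurons, reversed. Mef2c was 1.65-fold higher in prefrontal NeuN+ and 2.05-fold lower in cerebellar NeuN+. Of 12 genes of cortical interneurons, 6 were towards prefrontal cortex, 2 towards cerebellum and 4 were not called, beside the same shares of all features. Their median difference was -0.27 (-0.04 to -0.48 under the 4 scalings). Adarb2, an RNA-editing family gene, read 13.9 and 14.0 against 5.98 and 6.75 in prefrontal cortex and 4.83 and 4.21 against 17.9 and 18.1 in cerebellum.

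The general neuronal genes are read against 33.1% of all features towards cerebellum and 37.0% towards prefrontal cortex. Of 19 tested, 12 had the larger change in cerebellum, 2 in prefrontal cortex and 5 were not called (14 and 1 without scaling, 9 and 3 at a common sum). Within cerebellum 15 were higher and 2 lower in NeuN+. Within prefrontal cortex 7 were higher and 7 lower (7 and 9 without scaling, 10 and 5 at a common sum). Their summed level in the prefrontal NeuN- libraries was 2500 and 2630 scaled FPKM, against 2150 and 2120 in prefrontal NeuN+, 1830 and 1840 in NeuN+ of cerebellum and 1020 and 1030 in NeuN- of cerebellum. In this net sum the prefrontal excess in NeuN- lay with Snap25. Without it the other 18 members summed to 1114 and 1138 in prefrontal NeuN- and 1123 and 1102 in NeuN+. The list's median prefrontal change was 0.08 log2 units. These levels hold for the scaling used here and were not summed under the others. Snap25, the synaptosomal protein gene, reversed, with 1.40-fold less in prefrontal NeuN+ (1024 ± 3.43 against 1439 ± 74.1 scaled FPKM, SD, n = 2) and 1.95-fold more in cerebellar NeuN+ (771 ± 3.83 against 395 ± 0.106). Gap43 and Stmn2, genes of axon growth, Nefm and Elavl4 reversed in the same sense. The part of neuronal RNA in results of genes higher in prefrontal NeuN- was not tested. Of the 8 libraries, the 2 prefrontal NeuN- ones also had the highest FPKM sums, at 426851 and 414230 against 289350 to 307198 in the others.

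Microglial genes had the highest median difference of the 31 lists. All 18 tested members had the larger, less negative, change in cerebellum (16 of 18 at a common sum), against 33.1% of all features. The median difference was 2.45 against -0.06 over all features. The summed level was 1140 and 1170 scaled FPKM in prefrontal NeuN-, 63.9 and 69.2 in prefrontal NeuN+, 96.8 and 97.2 in NeuN- of cerebellum and 29.0 and 32.1 in NeuN+ of cerebellum. The difference thus lay with the prefrontal NeuN- libraries. P2ry12, the purinergic receptor gene of resting microglia, read 104 and 106 in prefrontal NeuN- against 1.70 and 1.76 in NeuN+, and 3.61 and 4.04 against 3.10 and 4.65 in cerebellum, where the gates overlapped. P2ry12 and P2ry13 both lie within Med12l. C1qa was below the filter.

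The counts of oligodendrocyte and astrocyte genes stand against 33.1% of all features with the larger change in cerebellum and 37.0% in prefrontal cortex. Oligodendrocyte genes were lower in NeuN+ in both regions for all 19 tested, but less so in cerebellum for 16. Their median difference was 1.24 (1.01 to 1.46 under the 4 scalings). Opalin, a myelin membrane protein gene, read 303 and 288 in prefrontal NeuN- against 5.14 and 5.00 in NeuN+, and 93.4 and 101 against 17.7 and 18.7 in cerebellum. It was 48.8-fold lower in NeuN+ of prefrontal cortex and 5.12-fold lower in cerebellum. All 19 astrocyte genes were also lower in NeuN+ in both regions, with 11 less so in cerebellum, 2 less so in prefrontal cortex and 6 not called. Gja1, the connexin 43 gene, was 37.5-fold lower in prefrontal NeuN+ and 6.15-fold lower in cerebellar NeuN+, while Aldh1l1, a folate metabolism gene, was 7.71-fold and 12.4-fold lower. The summed astrocyte level in the NeuN+ libraries was 116 and 116 in prefrontal cortex and 216 and 207 in cerebellum, and that of oligodendrocyte genes was 196 and 186 and 354 and 348. The share of these levels in results for cerebellar NeuN+ was not tested.

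Of 13 Bergmann glia genes, 7 had the larger change in prefrontal cortex and 4 in cerebellum, against 37.0% and 33.1% of all features. A2m, the alpha-2-macroglobulin gene, read 26.8 and 28.6 in cerebellar NeuN-, 0.721 and 1.01 in cerebellar NeuN+, 0.822 and 0.878 in prefrontal NeuN- and was listed at 0 in prefrontal NeuN+. Of 11 oligodendrocyte precursor genes, 6 were towards cerebellum and 4 towards prefrontal cortex, among them Xylt1, a xylosyltransferase gene, which reversed. Vascular genes were few, with 6 of 14 above the filter and Cldn5, Pecam1 and 6 others below it. Of 7 meningeal fibroblast genes, 4 were towards prefrontal cortex and 2 towards cerebellum. The choroid plexus and ependymal list had 4 tested members, with 1 called in each direction.

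Red blood cell genes were also present. Of 5 tested, 3 had the larger change in cerebellum and 0 in prefrontal cortex, against 33.1% and 37.0% of all features. Hbb-b1 and Hbb-b2 reversed with cerebellar NeuN+ higher, as did 8.48% of all features. The summed level was 193 and 191 scaled FPKM in prefrontal NeuN+, 548 and 482 in prefrontal NeuN-, 659 and 673 in NeuN+ of cerebellum and 566 and 563 in NeuN- of cerebellum. Globin genes are near-identical copies whose reads can be split, so single values are uncertain. They move with the pattern of genes reversed with cerebellar NeuN+ higher, and their part in it was not tested.

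**Figure D4:**
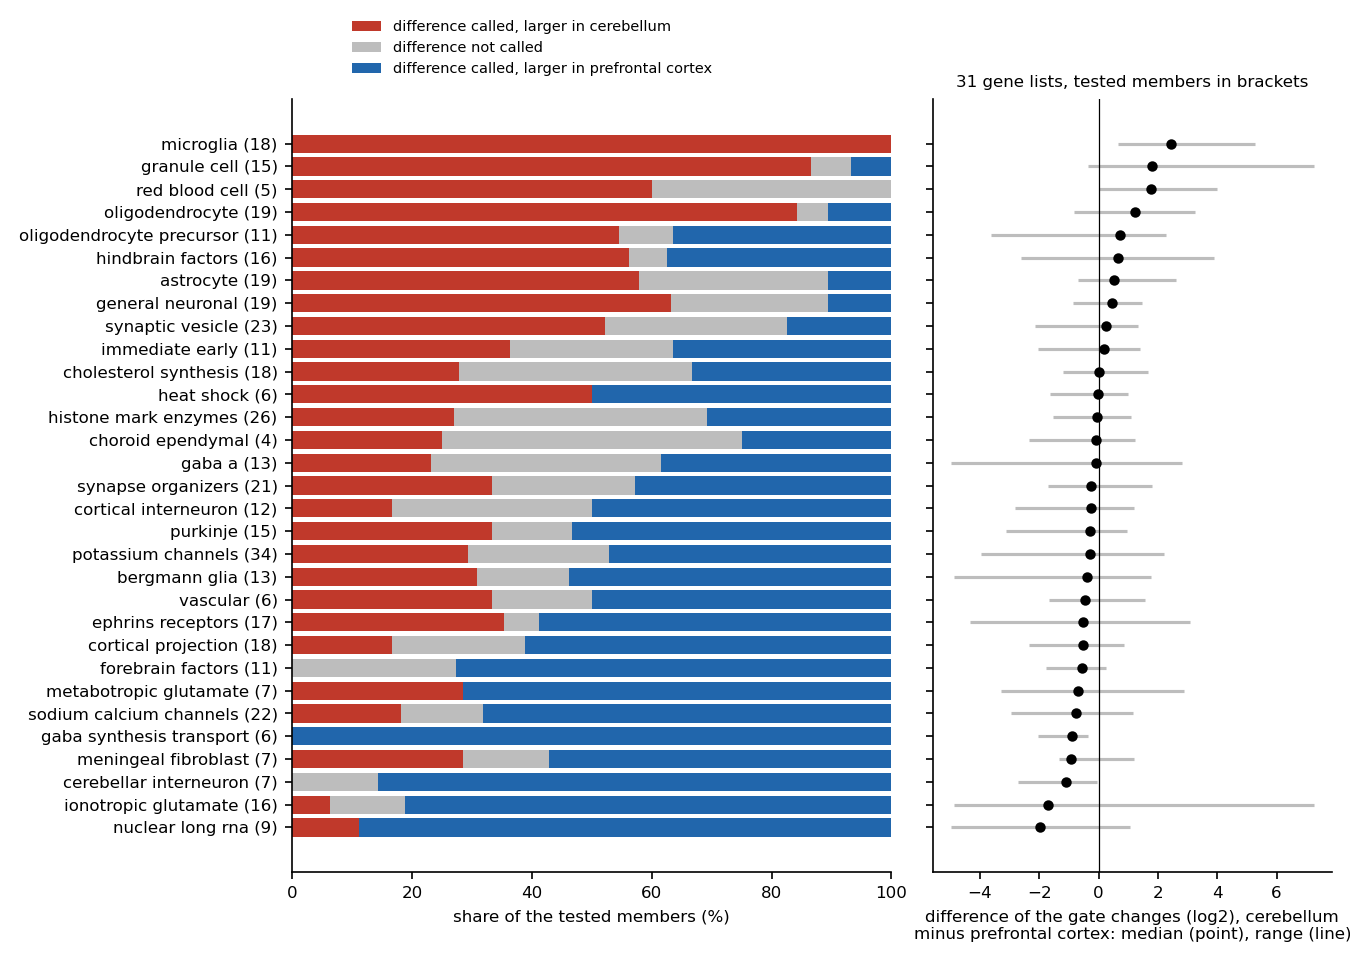
For each of 31 gene lists, the share of tested members whose difference was called and larger in cerebellum (red), not called (grey) or called and larger in prefrontal cortex (blue), and on the right the median (point) and range (line) of the difference of gate changes in log2 units. Microglial and granule cell genes stand at the top with medians of 2.45 and 1.78, ionotropic glutamate receptor genes and nuclear long RNAs at the bottom with -1.72 and -1.97.

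Nuclear long non-coding RNAs had a median difference of -1.97 (-1.50 to -2.23 under the 4 scalings), with 8 of 9 tested having the larger change in prefrontal cortex against 37.0% of all features. Snhg11, a neuronal RNA that hosts small nucleolar RNAs, read 907 and 914 scaled FPKM in prefrontal NeuN+ against 19.7 and 20.6 in NeuN-, and 452 and 463 against 335 and 335 in cerebellum. It was 43.0-fold higher in prefrontal NeuN+ and 1.36-fold higher in cerebellar NeuN+. Meg3, an imprinted long RNA, was 43.7-fold and 2.42-fold higher. Neat1, the RNA of nuclear paraspeckles, was the exception, lower in NeuN+ in both regions, 55.7-fold in prefrontal cortex and 27-fold in cerebellum. Malat1 was removed for its status.

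Transcription factor genes known from forebrain or hindbrain were counted as separate lists. Of 11 forebrain factors, 8 had the larger change in prefrontal cortex and 0 in cerebellum (5 and 0 without scaling or after quantile normalization). Of 16 hindbrain factors, 9 were towards cerebellum and 6 towards prefrontal cortex, where all features had 33.1% and 37.0%. En2, a cerebellar patterning gene, was 2.18-fold higher in cerebellar NeuN+ (20.5 and 19.4 against 7.92 and 9.27). Pax3 was 5.51-fold lower in cerebellar NeuN+, at 0.491 and 0.547 against 7.13 and 7.62, with 0.218 to 0.385 in the prefrontal libraries. Tfap2b, a factor of inhibitory progenitors, was lower in cerebellar NeuN+ by 1.73 log2 units.

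Other lists had no common direction, beside 33.1% of all features towards cerebellum and 37.0% towards prefrontal cortex. Of 17 ephrin and Eph receptor genes, 10 were towards prefrontal cortex and 6 towards cerebellum, with Efna1, a ligand, reversed at 3.10 ± 0.144 (log2, SE; adjusted p = 1.0e-05) and Ephb6, a receptor, reversed at -2.69. The 21 synapse organizer genes had 9 towards prefrontal cortex and 7 towards cerebellum. Of 26 histone mark enzyme genes 7 were towards cerebellum and 8 towards prefrontal cortex. Hdac9, a histone deacetylase gene, reversed with prefrontal NeuN+ higher, but stayed under 1 scaled FPKM in all cerebellar libraries. It read 0.28 and 0.37 in cerebellar NeuN+ against 0.56 and 0.62 in NeuN-. Ezh1, a Polycomb methyltransferase gene, was 2.14-fold higher in cerebellar NeuN+ with no called change in prefrontal cortex. Of 11 immediate early genes, 4 were called in each direction: Arc was 2.52-fold higher in NeuN+ of prefrontal cortex and 1.64-fold lower in cerebellum, and Egr1 was 1.24-fold lower and 2.11-fold higher. Of 18 cholesterol synthesis genes, 5 were towards cerebellum and 6 towards prefrontal cortex, and the reversed members Mvk and Ebp were both higher in cerebellar NeuN+. Of 6 heat shock genes, 3 were called in each direction, with Hspa8 1.22-fold higher in cerebellar NeuN+ and 1.41-fold lower in prefrontal NeuN+. Over the 31 lists the sign of the median difference was positive under all 4 scalings for 9, negative for 15 and mixed for 7.

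The genes named next had large differences without reversal. Hook1, a microtubule-linked trafficking gene that overlaps 9530080O11Rik, read 90.5 and 92.3 in prefrontal NeuN+ against 0.286 and 0.415 in NeuN-, a change of 68.5-fold, and was 2.21-fold higher in cerebellar NeuN+. Epha10, an Eph receptor gene, was 17.2-fold higher in prefrontal NeuN+, with no called change in cerebellum. Mboat2, Chd1l and Ccdc88a were low in cerebellar NeuN+ alone. Ccdc88a, an actin-binding protein gene, read 1.79 and 1.89 there, 35.8 and 36.5 in cerebellar NeuN-, and between 20.8 and 22.0 in the 4 prefrontal libraries.

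Towards cerebellum, Appl2, an endosomal adaptor gene, was low in prefrontal NeuN+ alone, at 11.7 and 13.3, against 165 and 182 in prefrontal NeuN-, 197 and 198 in NeuN+ of cerebellum and 212 and 215 in NeuN- of cerebellum. Plcd4, a phospholipase C gene that overlaps Usp37 and Zfp142, Itgb5, an integrin subunit gene, Entpd2, an ectonucleotidase gene, Dcxr, a sugar reductase gene, and Mcam, a cell adhesion gene, were likewise under 1 scaled FPKM in prefrontal NeuN+ and between 15.1 and 54.6 on average in prefrontal NeuN-. Rpl26, a ribosomal protein gene that overlaps Gm15772, was called at 3.82 ± 1.21 (log2, SE; adjusted p = 0.027), but its libraries disagreed, with 32.6 and 8.72 in cerebellar NeuN-.

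Some genes were expressed in 1 region only, with a highest group mean under 1 scaled FPKM in the other, so their difference comes mainly from the gate change of that region. In cerebellum Ptpn22, a tyrosine phosphatase gene, read 45.4 and 44.5 in NeuN+ against 1.95 and 1.86 in NeuN-, and Il20rb, a cytokine receptor gene, 55.9 and 56.1 against 3.54 and 3.48. Ltbp2 and Ly6g5b were also higher in cerebellar NeuN+. Cd70, Dao and Paqr6, with A2m and Pax3 above, were higher in cerebellar NeuN-, Dao at 8.57 and 9.41 against 0.718 and 0.317. In prefrontal cortex P2ry13, Rasal3, Fcrls, Cd52 and Swap70 were higher in NeuN-, with Cd52, a leukocyte surface protein gene, at 10.2 and 10.3 there and listed at 0 in all 6 other libraries. Kcnh7, Kcnh4, Kalrn, Frmpd3 and Miat were higher in prefrontal NeuN+. Kcnh7, a potassium channel gene, read 29.0 and 31.2 against 1.06 and 0.918 and was listed at 0 in the 4 cerebellar libraries, and Kalrn, a gene of dendritic spine signalling, read 41.6 and 42.5 against 1.40 and 1.23.

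Locus span and gene type were not used by the comparison. The locus span in the tables runs from first to last base. Its median was 14.1 kb for the genes reversed with cerebellar NeuN+ higher and 29.8 kb for those reversed with prefrontal NeuN+ higher. Over all features tested it was 20.6 kb. For the features reversed under all 4 scalings the medians were 14.0 and 30.7 kb. With the features divided by span into 10 groups of equal size, the share reversed with prefrontal NeuN+ higher was 5.92% in the group of shortest loci (median span 1.67 kb) and 16.1% in the longest (216 kb), and the share reversed with cerebellar NeuN+ higher was 9.81% and 5.01%, with its highest value, 12.4%, in the next-shortest group. The median gate change of all features went from -0.20 to 0.25 log2 units in prefrontal cortex between these groups and from 0.00 to -0.06 in cerebellum. Level was used by the filter and the calls and is given as a description. The genes reversed with cerebellar NeuN+ higher had medians from 12.1 to 20.8 scaled FPKM over the 4 groups. The range was 2.58 to 7.15 for those reversed with prefrontal NeuN+ higher. Long non-coding RNAs made up 2.95% of the former and 6.67% of the latter, against 5.72% of all tested. These are descriptions with no test, and span and level were not separated.

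**Figure D5:**
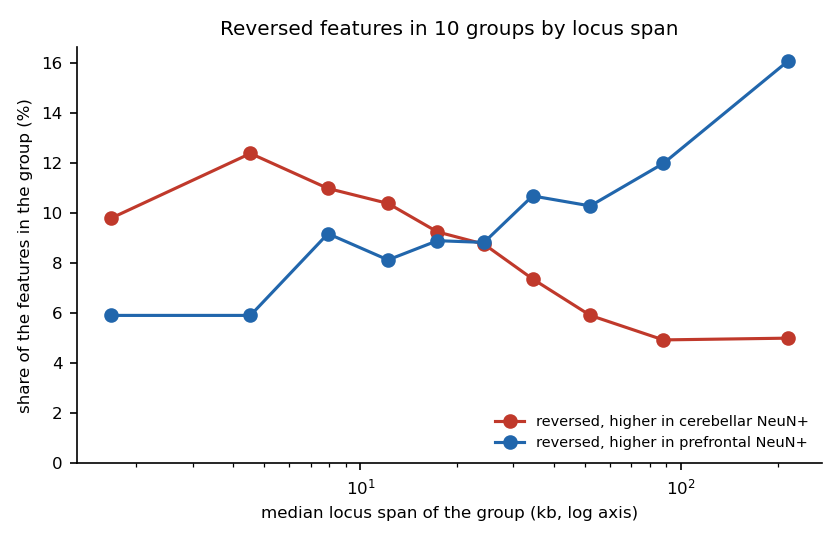
Share of features that were reversed (vertical axis, percent) in 10 equal groups of all 14367 tested features by locus span (horizontal axis, median kb of the group on a log axis), red for those higher in cerebellar NeuN+ and blue for those higher in prefrontal NeuN+. The blue share is 5.92% in the group of shortest loci and 16.1% in the longest, and the red share is 9.81% and 5.01%.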

How the data were processed

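RNA of NeuN-sorted nuclei from cerebellum and prefrontal cortex of 1 mouse was analysed in 8 libraries. The 168 chromatin samples were not analysed here. The deposited values are FPKM per gene, from Cufflinks per the file headers, with mm9 positions. Per the submitters' processing notes the tools were Trim Galore 0.3.7, Bowtie 1.1.1, TopHat2 2.1.1, Bismark and Cufflinks, with no roles stated. No source used here gives the annotation, the Cufflinks version or whether strand was used. The labels' protocols describe cerebellum, which was frozen, homogenized and spun through sucrose before NeuN staining and sorting; the dissection of prefrontal cortex is not given there. FPKM are already divided by library size and length, so they are not counts, and fragments could not be recovered: 50.0% to 53.4% of the low values implied a whole number of fragments within 0.05. Relative depth implied by those values ran from 1 to 1.52. Overlapping genes can exchange fragments, and an exact 0 can be a failed estimate.

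FPKM were joined on feature identifier and locus, and 9 features (14 values) with a status other than OK in any library were removed. Libraries were multiplied by median-of-ratios factors over 9109 features, 0.878 to 1.05. The 14367 features reaching 1 FPKM in 2 or more libraries were fitted on log2(scaled FPKM + 1) with limma 3.58.1 in R 4.3.3 (Python 3.11.15 for the rest), with 1 mean per group, a variance trend and 4 residual degrees of freedom. The 3 contrasts were the gate change in each region and their difference. Tests were two-sided, with Benjamini-Hochberg adjustment over all features within a contrast and a threshold of 0.05. The fit was tested on simulated data, with 50 features changed at each of 4 sizes, all above 5 scaled FPKM on average. It recovered 12% of differences of 1.25-fold, 50% of 1.5-fold, 74% of 2-fold and 98% of 4-fold, with 3 false calls. A difference that was not called can therefore be a missed one. The members, the 31 gene lists and the tests were chosen with earlier results of these data known. Named genes were the 12 reversed genes per direction with the largest smaller change, 8 other genes per direction with the largest difference (both with at least 5 scaled FPKM in each region), 5 per direction expressed in 1 region, up to 3 called members of a list in its main direction and 2 in the other, Rbfox3, and all tested glutamate and GABA-A receptor genes. Predicted, clone and small RNA symbols were left out, and some genes that meet the rule are not reported here. Further members of a list named in the text were chosen after their values were seen. Gene types and promoters come from RefSeq tables of GRCm38.p6, matched by symbol. Alternatives covered scaling, pseudocount, filters, status, variance trend, a replicate block and leaving out each library, 19 settings in all.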

Additional observations from a re-analysis of the deposited data

Results flagged for a closer look

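Each result here is one in which the NeuN+ to NeuN- change differed between the regions by the test of the difference itself. The test called 10071 features, 4755 with the larger change in cerebellum and 5316 with the larger change in prefrontal cortex, and 4252 by at least 1 log2 unit. Reversed features numbered 1219 with cerebellar NeuN+ higher and 1380 with prefrontal NeuN+ higher.

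Among the named reversed genes with cerebellar NeuN+ higher, the difference in log2 units was 7.25 for Grin2c, 4.75 for Tmem51, 4.19 for Hspb6, 3.85 for Tspan4, 3.6 for Prim1 and 3.58 for H2-K2. It was 3.43 for Hdhd3, 3.32 for Fars2, 3.31 for Zfp119b, 2.52 for Phykpl, 2.52 for Pcca and 2.51 for Rangrf. With prefrontal NeuN+ higher, it was -6.34 for Abi3bp, -5.67 for Col6a1, -5.27 for Socs2, -5.08 for Plk2, -4.73 for Grin2b and -4.57 for both Pparg and Adgra1. It was -4.51 for Frmd3, -4.49 for N4bp3, -3.52 for Gria3 and -3.50 for Dbndd1. The value of Ier5l, -4.35, depends on the pseudocount, since both cerebellar NeuN+ libraries are listed at 0. No group had enough libraries for a test of a single library standing apart.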

How the results depend on the processing

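The count of called features kept within 1.5 times of 10071 under all 19 alternatives. With the replicate block it was 9947, and leaving out each library in turn gave 9037 to 9268; where a group is left with 1 library, that library is assumed to vary like the other groups. Deviations of same-numbered libraries correlated between -0.05 and 0.03 across features, so the values showed no deviation shared by replicate number. The labels do not say whether replicate numbers pair the samples. With at least 5 FPKM in 2 libraries, 9777 features were tested, and 2777 differed by at least 1 log2 unit. There 3576 had the larger change in cerebellum and 3474 in prefrontal cortex, against 4755 and 5316 in the main setting. Reversed features numbered 1031 with cerebellar NeuN+ higher and 902 with prefrontal NeuN+ higher, against 1219 and 1380. The split between the directions thus also moved with this filter, and the cause was not tested. Of the named genes, 2 changed sign, both with a pseudocount of 0.1: Zic5 to 0.084 and Lum to -0.018, neither called, and the cause was not tested. Of 2097 values of named genes under settings that keep all libraries, 2070 kept their direction and side of the threshold, 17 lost and 8 gained the call. Of 1530 values with a library left out, 1506 kept both, 22 lost and 2 gained the call. All libraries come from 1 mouse, and 2 per group limit the precision. Depth is known only in relative terms, so values near 0 cannot be told from failed estimates.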

Other observations

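Gene groups picked by symbol pattern after the data were seen, which receive no test, leaned towards cerebellum. Of 89 nuclear genes of oxidative phosphorylation, 74 had the larger change in cerebellum and 5 in prefrontal cortex, against 33.1% and 37.0% of all features. Of the 89, 47 were reversed with cerebellar NeuN+ higher (37 to 50 under the 4 scalings), against 8.48% of all features. Their summed level was 28200 scaled FPKM in cerebellar NeuN+, 22100 in cerebellar NeuN-, 15600 in prefrontal NeuN+ and 23800 in prefrontal NeuN-. Of 81 cytosolic ribosomal protein genes, 62 had the larger change in cerebellum and 4 in prefrontal cortex, with 26 reversed (15 to 31 under the 4 scalings) and a median difference of 0.71 log2 units. Of 38 proteasome subunit genes, 24 had the larger change in cerebellum and 6 in prefrontal cortex, with 15 reversed and a median of 0.54. The median difference of each group stayed above 0 under the 4 scalings, at its lowest 0.62, 0.44 and 0.27. Many of these genes have processed copies elsewhere in the genome that can take their reads.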
